A study of Rattus norvegicus with 16 samples.

Results

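Tetrahydrobiopterin is the cofactor that tyrosine hydroxylase needs to make catecholamines, and 4 rat genes for its synthesis and recycling were followed here: Gch1, Pts, Spr and Qdpr. They were chosen by name, and each had 1 single-gene probe among the 30429 probes of the array, so all 4 genes, out of 18166 named by single-gene probes, were measured. The cells came from dispersed carotid bodies of Wistar rats aged 9 to 11 weeks, left and right organs mixed. A flow sort with the HNK-1 antibody gave neuroblasts (HNK-1 positive, immature cells of the neural crest lineage) and glomus cells (HNK-1 negative, the catecholamine-storing chemoreceptor cells). The 4 groups were neuroblasts and glomus cells of rats kept for 3 days in hypoxic chambers, and neuroblasts and glomus cells of rats kept in ambient air (normoxia), with 4 arrays each. The oxygen level of the chambers is not given in the sources used here, and neither is whether the arrays of a group came from separate animals.

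The pathway starts from GTP. GTP cyclohydrolase, encoded by Gch1, makes dihydroneopterin triphosphate and is regarded as the rate-limiting enzyme; pyruvoyltetrahydropterin synthase (Pts) and sepiapterin reductase (Spr) complete the synthesis. When an aromatic amino acid hydroxylase uses the cofactor it leaves a carbinolamine, which the dehydratase Pcbd1 turns into quinoid dihydrobiopterin and quinoid dihydropteridine reductase (Qdpr) turns back into tetrahydrobiopterin. In catecholamine cells the cofactor serves tyrosine hydroxylase (Th), and elsewhere it also serves the tryptophan hydroxylases and the nitric oxide synthases.

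Array medians were 4.71 to 4.94 in hypoxic neuroblasts, 4.71 to 4.74 in hypoxic glomus cells, 4.40 to 4.61 in normoxic neuroblasts and 4.42 to 4.64 in normoxic glomus cells (log2), so that the median difference over all probes was 0.25 in neuroblasts and 0.17 in glomus cells, hypoxic minus normoxic. One array was unlike the rest: hypoxic neuroblast replicate 1 correlated at 0.914 on average with its own group, where every other array reached at least 0.949. The Th probe read 9.40 to 12.76 over the 16 arrays. By limma 7 of 11 neuroblast markers were higher in normoxic neuroblasts than in normoxic glomus cells, where 0.996% of all probes were. In hypoxia 0 of 11 passed, where 0.283% of all probes passed in either direction, and 3 of 11 had an unadjusted p under 0.05. The median difference of the 11 markers, neuroblasts minus glomus cells, was 1.36 in normoxia and 0.41 in hypoxia. The labels give no array date or batch, so oxygen condition and any array batch that went with it cannot be told apart. In RNA from sorted pools, fewer cells of a type and less RNA per cell cannot be told apart either.

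The first question was whether the cofactor genes respond to 3 days of hypoxia. The 3 synthesis genes were higher after hypoxia in both populations, Gch1 by more than 4-fold and Spr and Pts by 1.57 to 2.27-fold, and the recycling gene Qdpr did not pass in either population. In neuroblasts 3 of 4 genes passed as higher, where 18.4% of all probes did (limma, adjusted p under 0.05 over all probes). In glomus cells the count was likewise 3 of 4, where 9.37% of all probes passed as higher. With each array centred on its median Pts passed in neither population. The count was then 2 of 4 in each, where 6% of all probes passed as higher in neuroblasts and 4.5% in glomus cells. None of the 4 passed as lower, where 13.7% of all probes did in neuroblasts and 9.5% in glomus cells. The median difference of the 4 genes was 0.92 in neuroblasts and 0.95 in glomus cells.

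Gch1 (probe 17701753) read 7.05, 7.47, 8.34 and 7.27 in hypoxic neuroblasts, against 5.69, 4.64, 5.40 and 5.24 in normoxic neuroblasts (log2, replicates 1 to 4). It read 7.84, 7.88, 8.03 and 7.53 in hypoxic glomus cells, against 5.39, 5.33, 5.86 and 5.97 in normoxic glomus cells. Every hypoxic array lay above every normoxic array, with the lowest hypoxic value (7.05) more than 1 log2 unit above the highest normoxic one (5.97). All 8 hypoxic arrays lay above all 8 normoxic arrays for 5.02% of all probes, whatever the gap, and the hypoxic arrays of a single population lay above its normoxic arrays for 16.3% in neuroblasts and 15.2% in glomus cells. Hypoxic neuroblasts exceeded normoxic neuroblasts by 2.29 ± 0.27 (limma difference ± SE, 4.89-fold, adjusted p = 1.01e-05). Hypoxic glomus cells exceeded normoxic glomus cells by 2.18 ± 0.27 (4.54-fold, adjusted p = 4.48e-05). Of the 30429 probes, 98 had a larger difference in neuroblasts and 69 in glomus cells. With each array centred on its median the Gch1 differences were 2.01 and 1.97, and the adjusted p-values 8.03e-05 and 0.00023.

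Spr (probe 17792739), whose enzyme makes the last reduction steps of the synthesis, read 8.83, 9.03, 9.33 and 9.16 in hypoxic neuroblasts, against 7.73, 7.82, 8.18 and 7.89 in normoxic neuroblasts. It read 9.18, 9.58, 9.06 and 9.10 in hypoxic glomus cells, against 8.10, 8.28, 8.44 and 8.35 in normoxic glomus cells. As for Gch1 and for the 5.02% of all probes given above, the 8 hypoxic arrays all lay above the 8 normoxic arrays. The difference was 1.18 ± 0.17 in neuroblasts (limma, 2.27-fold, adjusted p = 5.88e-05) and 0.94 ± 0.17 in glomus cells (1.92-fold, adjusted p = 0.000837).

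Pts (probe 17852250), the middle step, read 5.36, 5.58, 6.23 and 6.09 in hypoxic neuroblasts, against 4.80, 5.04, 5.31 and 5.51 in normoxic neuroblasts. In glomus cells it read 6.56, 5.98, 6.32 and 6.06 after hypoxia, against 4.78, 5.68, 5.43 and 5.22 in normoxia. The glomus cell groups did not overlap, whereas hypoxic neuroblast replicate 1 lay below normoxic neuroblast replicate 4. The difference was 0.65 ± 0.24 in neuroblasts (limma, 1.57-fold, adjusted p = 0.045) and 0.95 ± 0.24 in glomus cells (1.94-fold, adjusted p = 0.00866). The neuroblast call was weak: it ended in 14 of 26 alternatives, among them centring (0.37, adjusted p = 0.38) and quantile normalization (0.61, adjusted p = 0.0853). The glomus cell call ended with centring (0.74, adjusted p = 0.0746).

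Qdpr (probe 17690305), the recycling gene, read 6.64, 7.34, 7.12 and 7.17 in hypoxic neuroblasts, against 6.98, 7.73, 8.11 and 7.74 in normoxic neuroblasts. It read 8.26, 7.71, 8.35 and 7.66 in hypoxic glomus cells, against 8.29, 8.44, 8.52 and 8.21 in normoxic glomus cells. The hypoxic and normoxic values overlapped in both populations. The difference was -0.57 ± 0.23 in neuroblasts (95% interval -1.07 to -0.08, limma adjusted p = 0.0688) and -0.37 ± 0.23 in glomus cells (-0.86 to 0.12, adjusted p = 0.292). The neuroblast difference passed with centring (-0.85, adjusted p = 0.025) and without normoxic neuroblast replicate 1 (-0.79, adjusted p = 0.0131).

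**Figure D1:**
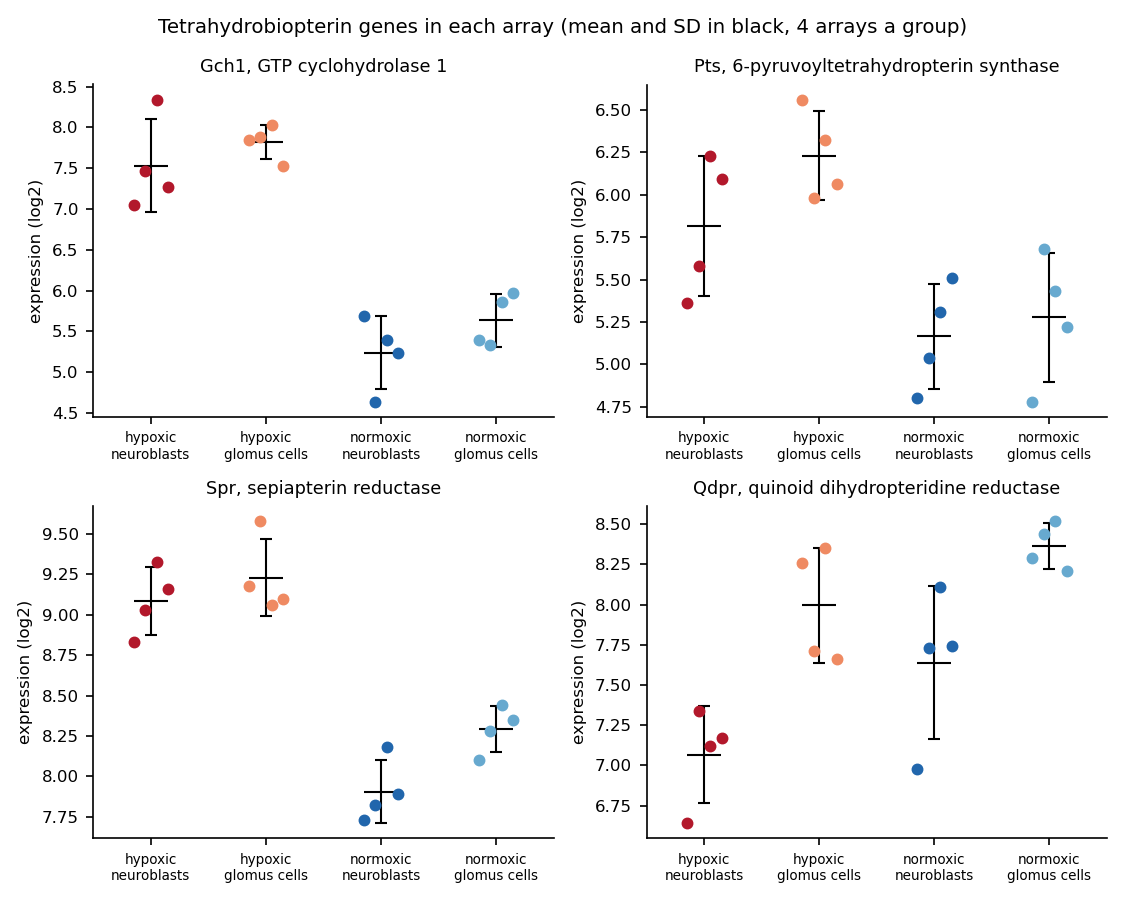
Expression (log2) of Gch1, Pts, Spr and Qdpr in each of the 16 arrays, by group; points are arrays, and the black bars are the mean and SD over 4 arrays. For Gch1 and Spr the 8 hypoxic arrays all lie above the 8 normoxic ones, and for Qdpr the neuroblast arrays lie below the glomus cell arrays of the same condition.

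The promoters of 3 members are shown because 2 of these genes, Gch1 and Pts, were higher after hypoxia and the other, Qdpr, was not. They are the 250 bases before the annotated start in the RefSeq promoter table (GRCr8), 5′ to 3′ on the gene's strand. Capitals mark matches, on either strand, to ACGTG and GCGTG (cores of the hypoxia response element), TGACG (found in the cyclic AMP response element), CCAAT (a common promoter element), GGGCGG (the GC box) and AAAGGTCA (the NR4A response element), and a match on the opposite strand is printed as its reverse complement. The Spr window overlaps a longer annotated transcript and is described by its matches alone.
Gch1, chr15:22917413-22917662, minus strand: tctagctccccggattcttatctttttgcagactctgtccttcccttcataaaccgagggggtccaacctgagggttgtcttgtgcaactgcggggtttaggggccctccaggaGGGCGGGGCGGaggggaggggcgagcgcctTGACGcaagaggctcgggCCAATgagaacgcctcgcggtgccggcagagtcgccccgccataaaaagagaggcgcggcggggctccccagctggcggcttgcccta
Pts, chr8:59774266-59774515, minus strand: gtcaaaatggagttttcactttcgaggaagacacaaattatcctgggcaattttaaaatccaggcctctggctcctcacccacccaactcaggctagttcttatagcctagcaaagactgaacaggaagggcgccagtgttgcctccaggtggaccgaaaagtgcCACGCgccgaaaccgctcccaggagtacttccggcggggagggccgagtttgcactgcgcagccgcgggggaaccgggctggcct
Qdpr, chr14:69882526-69882775, plus strand: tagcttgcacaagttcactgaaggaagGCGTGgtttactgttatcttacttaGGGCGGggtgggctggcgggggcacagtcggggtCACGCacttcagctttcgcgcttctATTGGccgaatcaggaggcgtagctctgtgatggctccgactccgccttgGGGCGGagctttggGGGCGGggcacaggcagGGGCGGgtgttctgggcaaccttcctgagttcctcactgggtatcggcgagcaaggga

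The Gch1 promoter held TGACG from -106 to -102 and CCAAT from -88 to -84, counted from the start site, and 2 GC boxes that share 1 base. A cyclic AMP response element and a CCAAT box are known in the proximal promoter of this gene in the rat. Matches to GCGTG were found in Pts (1), Spr (1) and Qdpr (2) and none in Gch1, and none of the 4 windows matched ACGTG or AAAGGTCA. Spr also had 2 CCAAT and 2 GGGCGG matches, and Qdpr 1 CCAAT and 4 GGGCGG matches. Of 33469 promoter windows of 300 bases in the table, 21.2% held TGACG, 37.5% CCAAT, 33.1% GGGCGG, 29.7% GCGTG, 19.3% ACGTG and 1.4% AAAGGTCA, so all but the last of these motifs were common. The matches are a description of these letters and not of binding.

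Next, the size of the Gch1 change was set against that of other genes on the same arrays. The per-array difference of 2 probe values cancels any shift of a whole array, and only its change between conditions was tested. Gch1 minus Pts averaged 1.72 ± 0.40 in hypoxic neuroblasts and 0.08 ± 0.58 in normoxic neuroblasts, and 1.59 ± 0.27 in hypoxic glomus cells and 0.36 ± 0.49 in normoxic glomus cells (log2, SD, n = 4). As measured by these probes, Gch1 thus moved by 1.64 more than Pts in neuroblasts and by 1.23 more in glomus cells. The normoxic Pts means of 5.16 in neuroblasts and 5.28 in glomus cells lie near the array medians. Whether the probes respond in proportion at such levels was not tested. Against Spr the excess was 1.11 in neuroblasts and 1.24 in glomus cells, and against Qdpr it was 2.86 and 2.55. In each of these pairs the hypoxic arrays of a population all lay above its normoxic arrays. The exact two-sided permutation test gave p = 0.0286 for each, the smallest that 4 against 4 arrays allow, and an adjusted p of 0.0286 over the 8 tests. Few probes had a larger hypoxia difference than Gch1, and the tests were chosen with earlier results of these data known. How many other partner probes would give the same p was not computed, so the p-values do not single out these partners.

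Th moved the other way. It read 9.40, 12.17, 11.48 and 11.46 in hypoxic neuroblasts, against 12.06, 12.23, 12.40 and 12.49 in normoxic neuroblasts. The neuroblast difference was -1.17 ± 0.39 (limma adjusted p = 0.03), and -0.59 without hypoxic neuroblast replicate 1, the lowest array (adjusted p = 0.0359). In glomus cells Th read 11.98, 12.20, 12.45 and 11.81 after hypoxia, against 12.56, 12.56, 12.76 and 12.62 in normoxia. These groups did not overlap, but the difference of -0.52 ± 0.39 did not pass (adjusted p = 0.38). In glomus cells the hypoxic arrays lay above the normoxic ones for 15.2% of all probes, and the share that lay below is not given here. The neuroblast call ended without normoxic neuroblast replicate 3 or 4 (adjusted p = 0.0653 and 0.0698) and with only the arrays compared (adjusted p = 0.106), where the glomus cell difference passed (adjusted p = 0.0424). The highest value on any array was 13.33, so these Th values lie near the top of the measured range, and whether the probe still responds in proportion there was not tested. As measured by these probes, the change of Gch1 exceeded that of Th by 3.46 in neuroblasts, 3.04 without hypoxic neuroblast replicate 1, and by 2.70 in glomus cells (exact two-sided permutation test, p = 0.0286 and adjusted p = 0.0286 each, all 4 arrays kept). As for the other pairs, these p-values do not single out Th.

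**Figure D2:**
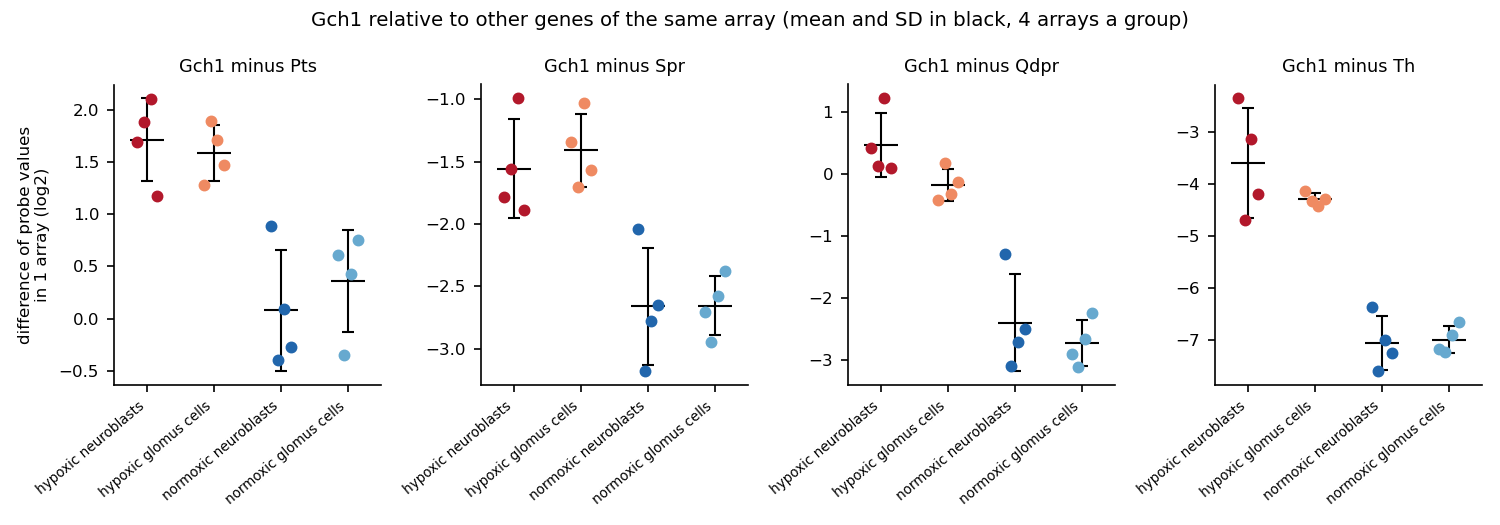
Difference between the Gch1 value and that of Pts, Spr, Qdpr or Th in the same array (log2), by group; points are arrays, and the black bars are the mean and SD over 4 arrays. In all 4 panels the hypoxic arrays lie above the normoxic arrays of the same population, with means 1.64 apart in neuroblasts and 1.23 apart in glomus cells for Pts, and the Th values behind the last panel lie near the top of the measured range. Only the change between groups is meaningful, because levels of different probes cannot be compared.

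Whether the populations respond differently was asked by the interaction, in which the glomus cell response is subtracted from the neuroblast response. It was 0.11 ± 0.38 for Gch1 (95% interval -0.69 to 0.91), -0.30 ± 0.34 for Pts (-1.01 to 0.40), 0.24 ± 0.24 for Spr (-0.26 to 0.75) and -0.20 ± 0.33 for Qdpr (-0.90 to 0.50). By limma 0 of the 4 genes passed and 0 had an unadjusted p under 0.05 (adjusted p 0.901 to 0.973), where 0.0789% of all probes passed. The intervals leave room for differences of up to 1.01 log2 units, so they do not show that the populations respond alike.

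The comparison of neuroblasts with glomus cells asks whether the immature cells carry less of the pathway. In hypoxia 0 of 4 genes passed by limma, where 0.283% of all probes did, and in normoxia 0 of 4, where 1.82% did. An unadjusted p under 0.05 was reached by 1 gene in hypoxia (Qdpr) and by 2 in normoxia (Qdpr and Spr). All 4 differences were negative in both conditions. For Gch1 they were -0.29 ± 0.27 in hypoxia and -0.39 ± 0.27 in normoxia (adjusted p = 0.713 and 0.811).

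Qdpr had the largest of these differences. The 4 neuroblast arrays lay below the 4 glomus cell arrays in hypoxia, which held in this direction for 2.21% of all probes, and again in normoxia, which held for 4.03%. The mean was 7.07 ± 0.30 in hypoxic neuroblasts and 8 ± 0.36 in hypoxic glomus cells (SD, n = 4), a difference of -0.93 ± 0.23 (limma adjusted p = 0.119, exact permutation p = 0.0286, unadjusted). In normoxia it was 7.64 ± 0.47 in neuroblasts and 8.37 ± 0.14 in glomus cells (SD, n = 4), or -0.73 ± 0.23 between them (limma adjusted p = 0.179, exact permutation p = 0.0286, unadjusted). Averaged over both conditions, a contrast added after these values were seen, the difference was -0.83 ± 0.17 (0.564-fold, adjusted p = 0.00928, where 1.41% of all probes passed as lower), and it passed in each of 24 alternatives (adjusted p up to 0.027). In the same added way, hypoxia averaged over both populations gave -0.47 ± 0.17 for Qdpr (adjusted p = 0.0293, where 16.4% of all probes passed as lower), a call that ended in 8 of 24 alternatives.

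**Figure D3:**
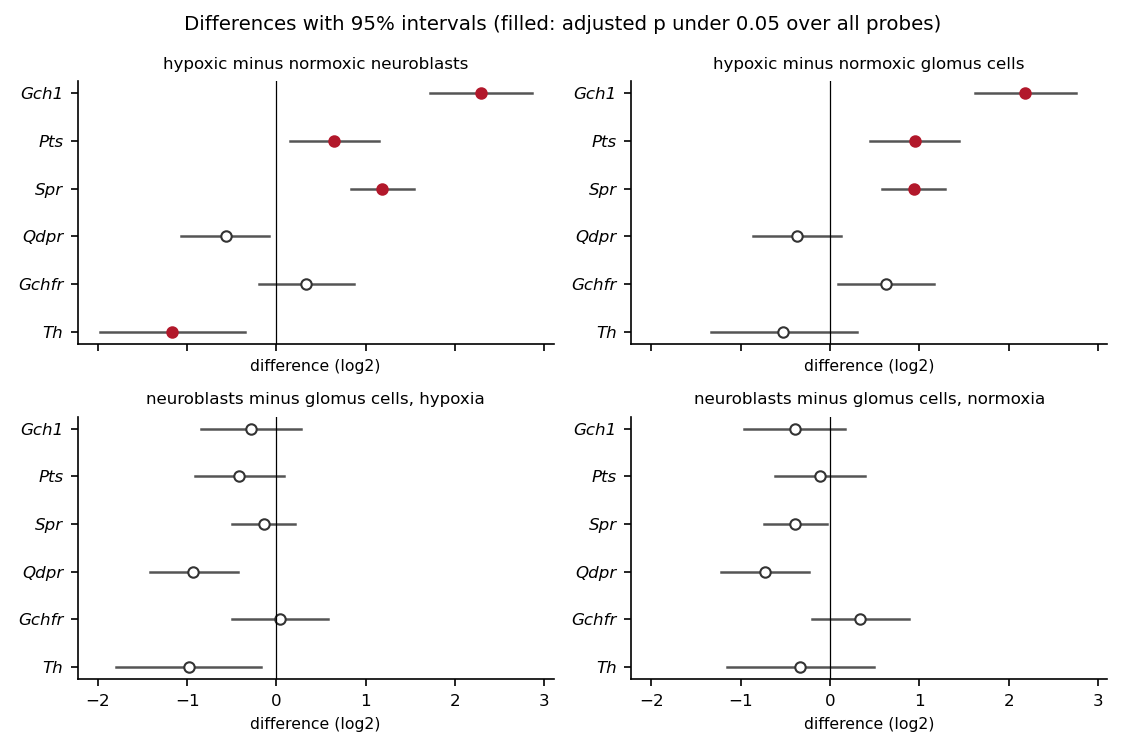
Differences (log2) of the 4 genes, the regulator gene Gchfr and Th in 4 comparisons, from limma; points are differences, lines 95% intervals, and filled points passed an adjusted p of 0.05 over all probes. The upper panels show hypoxic minus normoxic arrays, with Gch1 at 2.29 in neuroblasts and 2.18 in glomus cells, and the lower panels neuroblasts minus glomus cells, where no point is filled.

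Ordered by group mean, Gch1 was at 7.82 ± 0.21 in hypoxic glomus cells, 7.53 ± 0.57 in hypoxic neuroblasts, 5.64 ± 0.32 in normoxic glomus cells and 5.24 ± 0.44 in normoxic neuroblasts. Pts and Spr had the same order, and in all 3 genes the neighbours of the same condition overlapped. Qdpr was ordered by population, at 8.37 in normoxic and 8 in hypoxic glomus cells and 7.64 in normoxic and 7.07 in hypoxic neuroblasts, and each neighbouring pair overlapped.

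Over the 16 arrays Gch1 correlated with Spr (r = 0.94) and Pts (r = 0.81), and Pts with Spr (r = 0.82), while Gch1 and Qdpr gave r = -0.29. The arrays share their groups, whose means differ, and the 3 positive correlations were lower within groups: after the group means were removed, Gch1 and Spr gave 0.46, Gch1 and Pts 0.30, and Pts and Spr 0.45. Qdpr gave 0.77 with Th over the 16 arrays and 0.58 within groups, and 0.61 with Pts within groups.

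The 4 single-gene probes whose values followed Gch1 most closely over the 16 arrays were those of Arl6 (r = 0.960), Cxhxorf38 (0.958), Sdsl (0.957) and Timm10b (0.957). For Spr they were Tmem14a (0.979), Bex4 (0.974), Rbmx2 (0.969) and Hint2 (0.965). For Pts they were Coa8 (0.956), Atp5po (0.936), Rnf138l1 (0.931) and Ndufa7 (0.929). For Qdpr they were Slc33a1 (0.933), Atp6v0c (0.925), Rpn2 (0.906) and Pld3 (0.900). The 12 probes listed for Gch1, Spr and Pts were picked on the same arrays for following genes that were higher after hypoxia. Their own direction was fixed by that choice, and all 12 had higher means after hypoxia in both populations (differences of 0.61 to 2.22). The 4 listed for Qdpr, which itself passed in neither population, were picked in the same way and all had lower means after hypoxia (-0.15 to -0.97).

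Of 7 other genes listed for cofactor metabolism, 4 had a single-gene probe, and the rest were not analysed here. Cbr4, a carbonyl reductase, was the 1 of 4 that passed, as higher, in each population, where 18.4% of all probes did in neuroblasts and 9.37% in glomus cells. It read 6.34, 7.65, 7.88 and 7.59 in hypoxic neuroblasts, against 5.52, 5.67, 5.89 and 5.86 in normoxic neuroblasts, a difference of 1.63 ± 0.27 (limma adjusted p = 0.000276). Its glomus cell difference was 1.26 ± 0.27 (limma adjusted p = 0.00372), and the hypoxic arrays all lay above the normoxic ones in each population. That held for 16.3% of all probes in neuroblasts and 15.2% in glomus cells. Without hypoxic neuroblast replicate 1 the neuroblast count was 2 of 4, with Akr1b1, an aldose reductase, at 0.63 (adjusted p = 0.0306) against 0.01 with that array.

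Gchfr, whose protein binds GTP cyclohydrolase and mediates its feedback inhibition by the cofactor, read 4.89, 4.27, 4.58 and 4.09 in hypoxic neuroblasts, against 3.69, 4.54, 3.97 and 4.29 in normoxic neuroblasts. In glomus cells it read 4.78, 4.35, 3.97 and 4.56 after hypoxia, against 4.44, 3.57, 3.40 and 3.73 in normoxia. The groups overlapped in both populations. Hypoxic neuroblasts differed from normoxic ones by 0.33 ± 0.26 (limma adjusted p = 0.307). For glomus cells the value was 0.63 ± 0.26 (adjusted p = 0.0985), and it passed in glomus cells with array weights (0.74, adjusted p = 0.0151) or without normoxic glomus replicate 1 (0.85, adjusted p = 0.0254). The population differences of Gchfr were 0.04 in hypoxia and 0.34 in normoxia (adjusted p = 0.963 and 0.868).

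Among the enzymes that use the cofactor, listed with Dnajc12, a co-chaperone of the aromatic amino acid hydroxylases, 8 of 9 genes had a single-gene probe. After hypoxia 1 of 8 passed as higher and 1 of 8 as lower in neuroblasts, where 18.4% and 13.7% of all probes did. In glomus cells 1 of 8 passed as higher, where 9.37% of all probes did. In neuroblasts Th passed as lower and Agmo, which cleaves ether lipids, as higher (0.95 ± 0.24, limma adjusted p = 0.00743), and in glomus cells Tph1, a tryptophan hydroxylase, passed as higher (0.80 ± 0.27, adjusted p = 0.0433). The Agmo call ended with centring and with quantile normalization (0.66 in each, adjusted p = 0.0646 and 0.0726). The Tph1 call ended in 15 of 24 alternatives. Both probes read near the array medians. Agmo averaged 5.09 in hypoxic and 4.14 in normoxic neuroblasts. For Tph1 the means were 5.11 in hypoxic and 4.30 in normoxic glomus cells, and these groups overlapped. The nitric oxide synthase genes differed by 0.15 (Nos1), 0.25 (Nos2) and 0.24 (Nos3) in neuroblasts and by 0.15, -0.03 and 0.17 in glomus cells, and none of the 3 passed. Their group means lay between 4.16 and 4.92. None of the 8 passed between the populations by limma, in hypoxia (4 with an unadjusted p under 0.05) or in normoxia (0), where 0.283% and 1.82% of all probes passed.

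Of the 10 catecholamine genes listed after Th, 8 were measured. After hypoxia 1 was higher and 4 lower in neuroblasts, where 18.4% and 13.7% of all probes were. In glomus cells 0 were higher and 3 lower, where 9.37% and 9.5% of all probes were. In neuroblasts the noradrenaline transporter gene Slc6a2 differed by -2.52 ± 0.31, Dbh, whose enzyme makes noradrenaline, by -2.27 ± 0.34, and Ddc, the decarboxylase that follows Th, by -0.85 ± 0.17 (limma adjusted p = 0.00118 for Ddc). The vesicular transporter gene Slc18a1 was higher there, by 1.51 ± 0.29. In glomus cells the lower genes were the monoamine oxidase gene Maoa (-1.44 ± 0.25), Slc6a2 (-1.35 ± 0.31) and Ddc (-0.64 ± 0.17, limma adjusted p = 0.0132). Dbh, at -0.97 ± 0.34 in glomus cells, did not pass (adjusted p = 0.0595) but passed in 11 of 25 alternatives, so that 4 genes were lower with centring, with quantile normalization and without hypoxic neuroblast replicate 1.

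The supply of GTP was also listed, and 10 of 15 genes were measured. After hypoxia 2 of 10 were higher and 3 of 10 lower in neuroblasts, where 18.4% and 13.7% of all probes were, and 2 of 10 were higher and 1 of 10 lower in glomus cells, where 9.37% and 9.5% were. The count higher in neuroblasts and the count lower in glomus cells were thus near those of all probes. The 2 higher genes were the same in both populations. Hprt1, which salvages hypoxanthine and guanine, differed by 1.19 ± 0.21 in neuroblasts and 0.99 ± 0.21 in glomus cells, and Nme1, a nucleoside diphosphate kinase, by 1.23 ± 0.20 and 0.90 ± 0.20. Pfas, of purine synthesis from scratch, was lower in both populations (-1.66 ± 0.20 in neuroblasts, limma adjusted p = 1.06e-05, and -1.18 ± 0.20 in glomus cells, adjusted p = 0.000446) and Ppat, whose enzyme takes the first committed step of that synthesis, was lower in neuroblasts (-1.17 ± 0.25). The purine list median was -0.53 in neuroblasts and -0.28 in glomus cells, beside 0.25 and 0.17 over all probes.

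**Figure D4:**
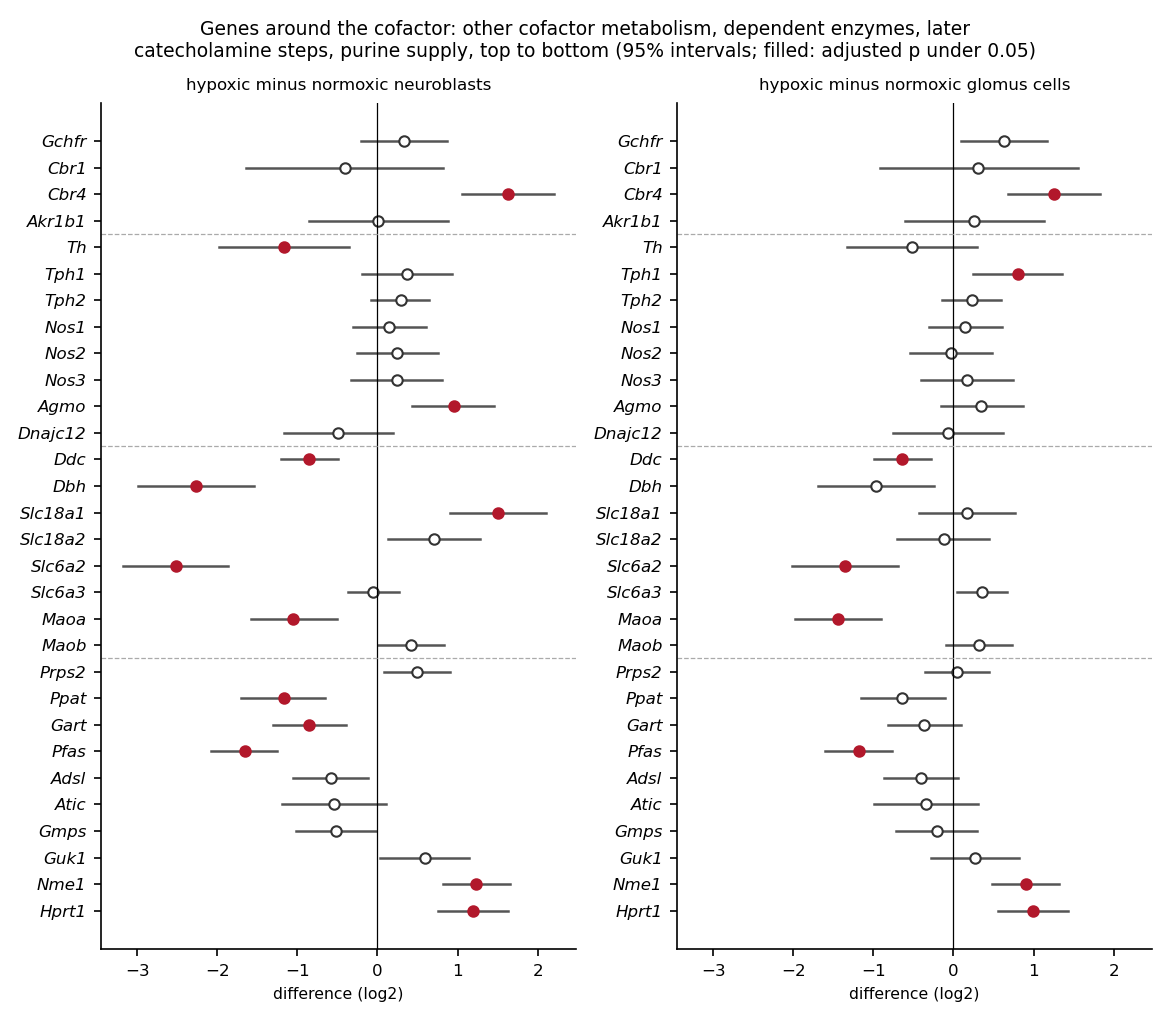
Hypoxic minus normoxic differences (log2) in neuroblasts (left) and glomus cells (right) for 30 genes around the cofactor, from limma; lines are 95% intervals, and filled points passed an adjusted p of 0.05 over all probes. From top to bottom, dashed lines part other cofactor metabolism, the enzymes that use the cofactor, later catecholamine steps and purine supply; Cbr4, Hprt1 and Nme1 are filled to the right of 0 in both panels and Ddc, Slc6a2, Maoa and Pfas to the left.

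Macrophages and endothelial cells can express Gch1, and the levels of their markers differed between some of the groups. The 12 macrophage markers averaged 4.55 to 5.06 in hypoxic neuroblasts, 6.08 to 6.58 in hypoxic glomus cells, 4.12 to 4.62 in normoxic neuroblasts and 4.92 to 6.54 in normoxic glomus cells (log2 mean per array). After hypoxia 4 of 12 were higher in glomus cells by limma, where 9.37% of all probes were. In neuroblasts 0 of 12 were higher, where 18.4% of all probes were, and 1 of 12 had an unadjusted p under 0.05. The 8 measured endothelial markers averaged 4.95 to 5.19 in hypoxic neuroblasts, 5.70 to 6.64 in hypoxic glomus cells, 4.00 to 4.55 in normoxic neuroblasts and 4.91 to 6.45 in normoxic glomus cells. Of these, 2 of 8 were higher after hypoxia in each population, which in neuroblasts is near the share of all probes. Between the populations, 7 of 12 macrophage markers were lower in neuroblasts in hypoxia and 6 of 12 in normoxia, and 1 of 8 endothelial markers in each. Of all probes, 0.145% were lower in hypoxia and 0.828% in normoxia. The part of these cells in the differences of Gch1 and Qdpr was not tested.

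**Figure D5:**
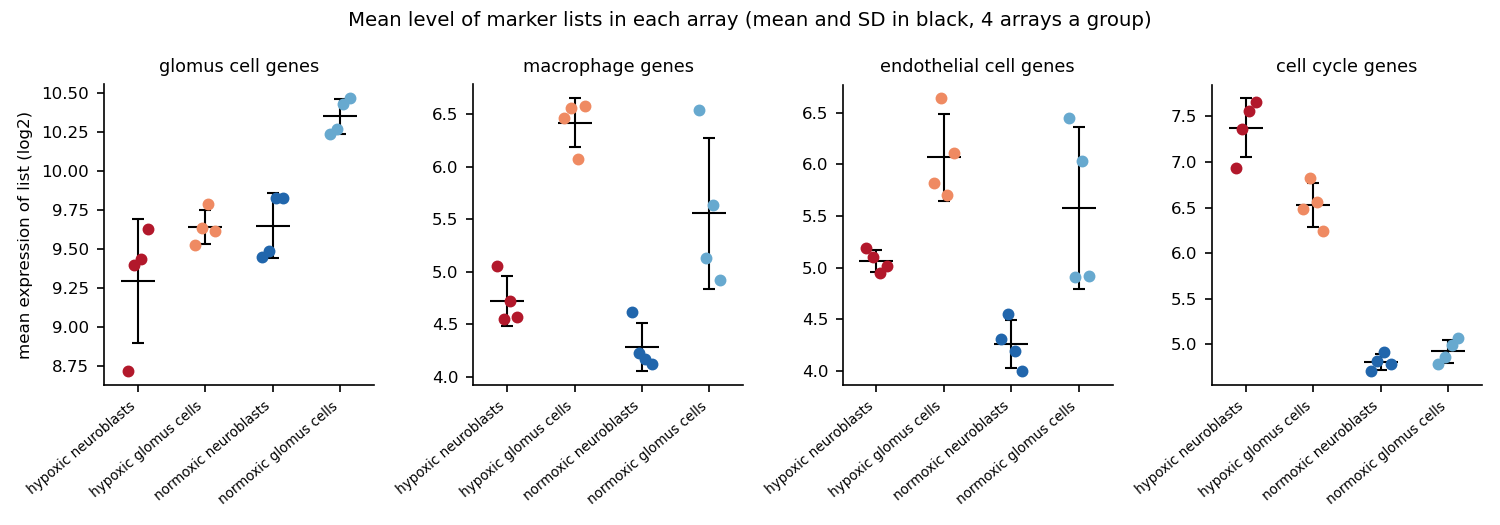
Mean expression (log2) of the glomus cell, macrophage, endothelial cell and cell cycle lists in each array, by group; points are arrays, and the black bars are the mean and SD over 4 arrays. Macrophage means in hypoxic neuroblasts (4.55 to 5.06) lie below those in hypoxic glomus cells (6.08 to 6.58), and cell cycle means are higher in the hypoxic groups.

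The cell cycle list was higher after hypoxia for 9 of 10 genes in neuroblasts and 7 of 10 in glomus cells. Over all probes, 18.4% were higher and 13.7% lower in neuroblasts, and 9.37% and 9.5% in glomus cells. Of 12 glomus cell markers 2 were higher and 7 lower in neuroblasts, and 1 higher and 6 lower in glomus cells. Of the 9 measured immediate early genes, which dissociation can induce, 0 were higher and 9 lower in neuroblasts and 0 higher and 4 lower in glomus cells. The neuroblast list had 1 of 11 higher and 8 lower in neuroblasts, and 0 higher and 2 lower in glomus cells. The remaining lists (neutrophils, fibroblasts, pericytes, type II and glial cells, peripheral neurons, erythroid cells, and T and NK cells) had 0 to 2 higher and 0 to 4 lower genes in either population, of 1 to 10 measured. The part of these shifts in the cofactor gene differences was not tested.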

How the data were processed

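Affymetrix rat gene arrays measured 16 samples, 4 per group, from biotinylated cDNA of 500 pg total RNA, per the labels' protocols. The authors deposited log2 values per probe, made with Transcriptome Analysis Console, per the submitters' processing notes; the sources used here give neither its version nor its background correction, normalization and annotation. That the base is log2 was inferred from the range of 0.87 to 13.33. Of 30429 probes, 18511 name 1 gene, 575 several and 11343 none. All were tested, with no filter and no further scaling.

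A mean per group was fitted with limma 3.58.1 (lmFit, eBayes) in R 4.3.3, with 12 residual degrees of freedom, two-sided tests and Benjamini-Hochberg adjustment over all probes within a comparison. The threshold was an adjusted p under 0.05. The fit was tested on simulated data. Genes with several probes took the one with the highest mean. The labels do not name separate animals, so p-values measure the spread between these samples, and the number of arrays limits precision. Figures used Python 3.11.15 and matplotlib 3.10.9.

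The members, the lists and the tests were chosen with earlier results of these data known. Named by rule were the 4 members, Gchfr and Th throughout (genes of the rule without a value are not reported here), the genes of 2 cofactor lists that passed, up to 4 per hypoxia comparison from the catecholamine and purine lists by smallest p, and the 4 most correlated probes per member; Akr1b1 and the nitric oxide synthase genes were named after their values were seen. Same-numbered samples of different groups shared little deviation (median correlation 0.05, -0.10 to 0.20, above 0.1 in 8 of 24 pairs). The median was -0.01 for samples with different numbers. The numbers were not treated as pairs in the main fit.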

Additional observations from a re-analysis of the deposited data

Results flagged for a closer look

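Of 64 groups of 4 arrays, 16 genes of the cofactor lists in 4 groups, 2 held an array far from the other 3, where chance flags about 1 in 20. Both were hypoxic neuroblast replicate 1. Cbr1, a carbonyl reductase, read 6.49 there, against 9.81, 10.30 and 10.18 in the other 3 arrays of the group. Akr1b1 read 7.63, against 9.97, 10.07 and 10.29. The 4 members were not among them: in the same array Gch1 read 7.05, Pts 5.36, Spr 8.83 and Qdpr 6.64, each the lowest of its group, and without it their neuroblast differences between hypoxia and normoxia were 2.45, 0.80, 1.27 and -0.43.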

How the results depend on the processing

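Gch1 and Spr kept their direction and their calls after hypoxia in both populations under all 26 alternatives. Leaving out 1 array gave 2.02 to 2.45 and 1.10 to 1.27 in neuroblasts and 2.08 to 2.29 and 0.82 to 0.99 in glomus cells. Pts in neuroblasts lost its call with centring (0.37), quantile normalization (0.61), only the arrays compared (0.65), the exact permutation test (p = 0.0571) and a threshold of 0.01, and without any of 9 single arrays (0.51 to 0.80 over all 16): hypoxic neuroblast replicates 3 and 4, normoxic neuroblast replicates 1 to 3, hypoxic glomus replicates 3 and 4, and normoxic glomus replicates 3 and 4. Pts in glomus cells lost it with centring (0.74; 0.79 to 1.09 leaving out 1 array). Qdpr in neuroblasts passed with centring (-0.85, so that 1 gene was lower in place of 0) and without normoxic neuroblast replicate 1 (-0.42 to -0.79 leaving out 1 array, 0 to 1 genes lower). Its population differences of -0.93 and -0.73 passed the unadjusted exact test. Some uncalled values changed sign: Pts between the populations in normoxia (-0.28 to 0.02) and the Gch1 interaction (-0.16 to 0.27), leaving out 1 array. Slc18a1 in glomus cells was -0.04 with centring (0.17 as deposited), Akr1b1 in neuroblasts -0.27 with centring and -0.26 to 0.63 leaving out 1 array (0.01), and Slc18a2 in glomus cells 0.04 with quantile normalization and -0.25 to 0.04 leaving out 1 array (-0.12).

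The replicate block changed no limma call of a member. In the comparison of Gch1 with other genes of the array, the exact paired sign-flip permutation test left the differences at 1.64 (Pts), 1.11 (Spr), 2.86 (Qdpr) and 3.46 (Th) in neuroblasts and 1.23, 1.24, 2.55 and 2.70 in glomus cells, with p = 0.125, the smallest that 4 pairs allow. Leaving out 1 array gave, in that order, 1.48 to 1.91, 0.92 to 1.31, 2.61 to 3.23 and 3.04 to 3.83, and 0.99 to 1.36, 1.12 to 1.34, 2.42 to 2.71 and 2.62 to 2.81. In neuroblasts the calls of Gch1 minus Pts and of Gch1 minus Spr each ended in 5 of 10 alternatives, the sign-flip test among them. Each of the other calls ended in 1 of 10, the sign-flip test.

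Centring changed the balance of all calls, to 6% of probes higher and 18% lower in neuroblasts (18.4% and 13.7% as deposited) and 4.5% and 12.4% in glomus cells (9.37% and 9.5%). Purine genes lower were then 5 in place of 3 in neuroblasts and 2 in place of 1 in glomus cells, higher cofactor-using enzymes 0 in place of 1 in each population (also with quantile normalization), and higher endothelial markers 1 in place of 2. Higher catecholamine genes in neuroblasts were 2 in place of 1 with quantile normalization and without hypoxic neuroblast replicate 1. Averaging probes was not run, since each member has 1 probe. The arrays carry no detection call here, so how far dim probes such as Gchfr lie above background is unknown.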
